A study of Solanum lycopersicum with 12 samples.

Results

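The GAME (GLYCOALKALOID METABOLISM) genes of tomato act in the synthesis of steroidal glycoalkaloids, and 8 of them were followed here in ripening fruit. They were chosen by identifier, as the rows of the deposited count table for GAME1, GAME4, GAME6, GAME9, GAME11, GAME12, GAME17 and GAME18, so 8 of the 34075 genes listed. The 12 libraries came from fruit of the cultivar Ailsa Craig. Wild type (WT) and slnor, a CRISPR mutant of the NAC transcription factor gene NOR in that cultivar, were each sampled at breaker, when the green fruit first turns colour, and 7 days later, with 3 libraries in each of the 4 groups. The plants of both genotypes shared 1 controlled greenhouse regime. The labels name neither the edit nor the number of independent slnor lines. Whether replicate libraries stand for different plants is not stated, so the p-values cover library-to-library spread, part or all of which may be technical.

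Steroidal glycoalkaloids are bitter, nitrogen-containing defence compounds made from cholesterol. In tomato, oxidation of cholesterol, insertion of nitrogen and stepwise addition of sugars give α-tomatine, which is abundant in green fruit. During ripening α-tomatine is converted by hydroxylation, acetylation and a further glucosylation to esculeoside A, the less bitter form of ripe fruit. Several GAME genes lie close together in clusters on chromosomes 7 and 12.

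Library totals ran from 50714230 to 69124795 counts. Fruit transcripts were present in every library: the summed level of 4 fruit markers (E8, PG2a, RIN and PSY1) was at least 14400 CPM (counts relative to library size after TMM scaling), and all 4 were lower in slnor at both stages. NOR transcript (Solyc10g006880.3) was present in both genotypes, with log2 fold changes in slnor of −0.24 at breaker and 0.23 after 7 days. This does not check the genotype, as edited genes can still be transcribed. Low counts piled up at multiples of 4: of all counts from 1 to 12, 27.2% were 4 and 15.3% were 8. A count therefore does not stand for 1 read or read pair, and the floor used for a group without counts was 12 counts. In 1 library, 12 counts corresponded to 0.162 to 0.247 CPM. Fewer cells of a type and less RNA per cell cannot be told apart in these whole-fruit samples.

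At breaker GAME11 and GAME12 were the most abundant of the 8 members in both genotypes. On the FPKM scale, which corrects for gene length, GAME11 made up 53.5% of the summed level of the 8 genes in WT and GAME12 27.7%, against 48.2% and 31.4% in slnor. The summed FPKM of the 8 genes was 23.8, 24.8 and 21.9 in the WT libraries and 26.0, 28.6 and 26.7 in the slnor libraries at breaker. After 7 more days it was 0.41, 1.36 and 0.96 in WT and 6.06, 6.94 and 6.56 in slnor. The later libraries of both genotypes thus lay below all breaker libraries, and the later slnor libraries lay above the later WT libraries without overlap. FPKM follows library totals, without TMM scaling. With totals alone, the typical gene stood log2 0.198 higher in slnor at breaker, against 0.0222 with TMM. GAME11 was higher in slnor there by mean FPKM (13.05 against 12.56) but lower by mean CPM (17.6 against 19.1). The higher slnor sums at breaker are therefore not read as a genotype difference.

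**Figure D1:**
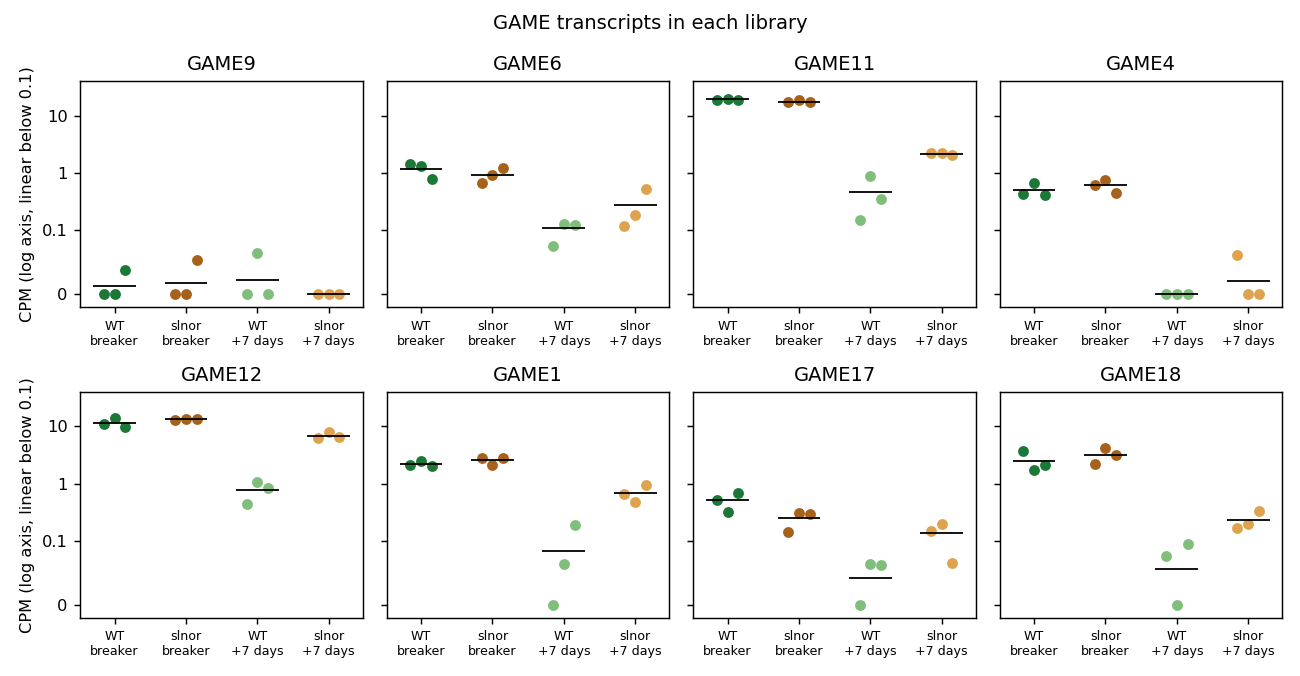
Level of each of the 8 GAME transcripts in CPM in the 12 libraries (log axis, linear below 0.1), with 1 point per library and a bar at the mean of 3. Breaker points of WT and slnor overlap for GAME1, GAME4, GAME6, GAME12 and GAME18 but not for GAME11 and GAME17, where slnor lies lower; WT points after 7 days lie near 0 for most genes, and for GAME12 the later slnor points sit between 6.28 and 7.83 CPM against 0.438 to 1.07 in WT.

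GAME9 (Solyc01g090340.3), an AP2/ERF transcription factor that activates glycoalkaloid genes, was almost undetected. It had 2 counts in 1 WT library and 4 in 1 slnor library at breaker, 4 counts in 1 WT library after 7 days, and none in the other libraries. All these values are below the 12-count floor, no fold is given, and GAME9 did not enter the tests. Without the low-count filter its adjusted p lay between 0.306 and 0.928 in the 5 comparisons. At this depth no difference in GAME9 between groups was detectable.

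GAME6 and GAME11 act early, in the oxidation of the cholesterol skeleton. GAME6 (Solyc07g043460.3), a cytochrome P450 of the CYP72 family, stood at 1.42, 1.31 and 0.792 CPM in WT and 0.664, 0.929 and 1.22 CPM in slnor at breaker. The later values were 0.0762, 0.130 and 0.126 CPM in WT and 0.122, 0.186 and 0.537 CPM in slnor. The genotypes overlapped at both stages, with 1 slnor library high at the later stage. GAME11 (Solyc07g043420.3), a dioxygenase, was the most abundant member at breaker and the least variable one in WT, at 18.6, 19.7 and 19.0 CPM in WT and 17.4, 18.3 and 17.1 CPM in slnor. After 7 days the WT libraries had 0.152, 0.876 and 0.348 CPM and the slnor libraries 2.23, 2.23 and 2.03 CPM. The later groups did not overlap, and the WT libraries spread widely around their mean (0.459 ± 0.375 CPM, SD, n = 3) where slnor did not (2.17 ± 0.113 CPM).

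GAME4 and GAME12, neighbours on chromosome 12, act at the step that commits the pathway to nitrogen-containing products. GAME4 (Solyc12g006460.2), a cytochrome P450 of the CYP88 family, was low throughout, at 0.433, 0.671 and 0.415 CPM in WT and 0.610, 0.769 and 0.446 CPM in slnor at breaker. Later it had no count in any WT library and 4 counts in 1 of 3 slnor libraries. Both later groups were thus under the floor, and no fold between them is given. GAME12 (Solyc12g006470.2), the aminotransferase that supplies the nitrogen and is listed by RefSeq as GABA-TP2, stood at 11.2, 13.8 and 9.58 CPM in WT and 13.1, 13.6 and 13.5 CPM in slnor at breaker. The later values were 0.438, 1.07 and 0.853 CPM in WT and 6.28, 7.83 and 6.61 CPM in slnor. It was the only member whose WT libraries all stayed above the low-count limit of 0.173 CPM at the later stage.

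GAME1, GAME17 and GAME18 are glycosyltransferases that add the galactose and glucose units of the sugar chain. GAME1 and GAME18 are neighbours and GAME17 lies close by. Since no source used here gives the handling of reads shared by similar genes, their single levels are uncertain. GAME1 (Solyc07g043490.1) stood at 2.08, 2.45 and 2.08 CPM in WT and 2.77, 2.10 and 2.80 CPM in slnor at breaker. Later it stood at 0, 0.0649 and 0.190 CPM in WT and 0.671, 0.474 and 0.960 CPM in slnor, with no overlap. GAME18 (Solyc07g043500.1) spread widely among replicates at breaker, with 3.73, 1.70 and 2.13 CPM in WT and 2.21, 4.20 and 3.11 CPM in slnor. It stood later at 0.0762, 0 and 0.0948 CPM in WT and 0.168, 0.203 and 0.342 CPM in slnor. The groups again did not overlap, though the later WT group held 10 counts in all, under the floor of 12. GAME17 (Solyc07g043480.1) was the lowest of the 3, at 0.516, 0.326 and 0.698 CPM in WT and 0.144, 0.304 and 0.297 CPM in slnor at breaker. Its later WT libraries had 0, 4 and 4 counts and its slnor libraries 10, 12 and 4 counts, all at or under the floor.

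Per length, the order at breaker was the same in both genotypes down to GAME6. In WT it ran GAME11 (12.6 ± 0.391 FPKM, SD, n = 3), GAME12 (6.50 ± 1.21), GAME18 (1.77 ± 0.743), GAME1 (1.41 ± 0.139), GAME6 (0.597 ± 0.174), GAME17 (0.340 ± 0.130) and GAME4 (0.303 ± 0.0839). GAME18 and GAME1 overlapped across libraries, as did GAME17 and GAME4, and GAME6 overlapped GAME17. After 7 days GAME12 came first in both genotypes. It stood at 4.13 ± 0.505 FPKM against 1.5 ± 0.0781 for GAME11 in slnor, without overlap, whereas in WT the pair overlapped (0.430 ± 0.183 and 0.293 ± 0.248 FPKM).

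The first comparison asked whether slnor and WT differed at breaker. None of the 7 members tested did so at an adjusted p under 0.05 (edgeR quasi-likelihood test), while 49.3% of all 20070 genes tested passed, 25.6% as higher and 23.7% as lower. The members' log2 fold changes ran from −1.03 for GAME17 (95% interval −2.52 to 0.46) to 0.34 for GAME18 (−0.42 to 1.09), with a median of 0.21 beside 0.02 for all genes. For GAME11 and GAME17 all slnor libraries lay below all WT libraries in CPM at breaker, though neither passed. In FPKM the genotypes overlapped for both genes. GAME11 ranged from 12.21 to 12.98 in WT and from 12.52 to 13.72 in slnor, GAME17 from 0.21 to 0.47 and from 0.10 to 0.23. How often other genes separate in this way was not counted. The intervals were narrowest for the abundant members. For GAME12 the change was 0.22 (SE 0.154, −0.11 to 0.54, adjusted p = 0.268) and for GAME11 −0.12 (SE 0.163, −0.46 to 0.23, adjusted p = 0.587). For GAME4, GAME6, GAME17 and GAME18 the intervals included 2-fold changes, so a difference of that size is not excluded. Scaled by library totals only, the median of all genes was 0.20 here and 0.10 after 7 days. At breaker GAME12 then passed at 0.39 (adjusted p = 0.040) and the sign of GAME11 turned (0.06), with both values to be read against the shifted median.

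After 7 days 4 of the 7 members tested were higher in slnor and none was lower, where 28.5% of all genes tested were higher and 27.4% lower. GAME12 was 8.60-fold higher in slnor (log2 3.10, SE 0.204, adjusted p = 9.96e-10), GAME1 7.73-fold (2.95, SE 0.517, adjusted p = 1.17e-04) and GAME11 4.58-fold (2.19, SE 0.278, adjusted p = 3.59e-06). GAME18 was 4.08-fold higher (2.03, SE 0.671, adjusted p = 0.0165). That call rests on few counts: it was lost without WT replicate 2 (1.44, adjusted p = 0.0669) or slnor replicate 3 of this stage (1.68, adjusted p = 0.0759), with only these 2 groups fitted (adjusted p = 0.0507), and with counts divided by 4 (adjusted p = 0.139). GAME6 (1.31, adjusted p = 0.0674) and GAME17 (1.62, adjusted p = 0.126) did not pass, and GAME6 did so without slnor replicate 1 (1.68, adjusted p = 0.0227). The median of the 7 members was 2.19 beside 0.0035 for all genes.

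The sizes of these differences depended on single WT libraries, in which the members had few counts. Without WT replicate 3 of the later stage GAME1 stood at log2 4.25 and GAME18 at 2.67, and without WT replicate 2 GAME11 stood at 3.06. The direction was the same in all of these fits. Markers of the cuticle and of green tissue also differed between genotypes at this stage. All 3 epidermal cuticle markers (CER6, CD1 and GPAT6) were higher in slnor 7 days after breaker, their summed level being 110 to 117 CPM against 58.5 to 61.4 in WT, and CD1 had counts in only 1 of 3 WT libraries. Of 4 green-tissue markers (RBCS-2A, PSBO, Cab-1A and PSBQ), 3 were higher and 1 was lower, with sums of 252 to 263 against 217 to 224 CPM. At breaker, where no GAME member passed, the sums were 72.3 to 78.4 CPM in slnor against 286 to 301 in WT for the cuticle markers and 593 to 653 against 771 to 829 CPM for the green-tissue markers. The markers did not move together there. Of the cuticle genes CER6 was lower in slnor at breaker (log2 −2.03, edgeR adjusted p = 1.89e-16), whereas CD1 (1.80, adjusted p = 4.80e-05) and GPAT6 (1.52, adjusted p = 0.0091) were higher, and of the green-tissue genes 3 were lower and RBCS-2A was higher (0.36). The part of these tissues in the GAME difference was not tested.

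**Figure D2:**
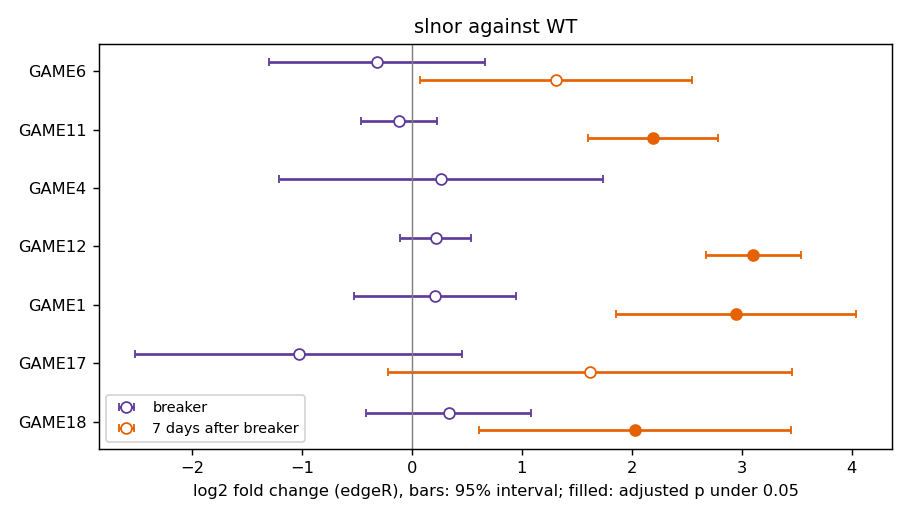
Log2 fold change of slnor against WT (edgeR) for the 7 members tested, at breaker and 7 days later, with 95% intervals; filled points passed an adjusted p under 0.05. Breaker points lie between −1.03 and 0.34 with intervals across 0, and later points lie between 1.31 and 3.10; GAME4 is not drawn at the later stage, where both groups were under the floor.

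Ripening of WT fruit was accompanied by a near loss of these transcripts. All 7 members tested fell between breaker and 7 days later, where 33.2% of all genes tested rose, 32.1% fell and 14.6% fell at least 2-fold. GAME18 fell 43.0-fold (log2 −5.43, SE 0.545, adjusted p = 1.45e-07), GAME11 40.4-fold (−5.34, SE 0.240, adjusted p = 3.91e-12) and GAME1 24.2-fold (−4.60, SE 0.490). GAME12 fell 14.4-fold (−3.85, SE 0.202), GAME17 11.1-fold and GAME6 10.3-fold. GAME4 was at least 7.48-fold lower, with 12 counts over the later WT group in place of 0. In WT at the later stage only GAME12 lay above the low-count limit in all 3 libraries, against 7 members at breaker. The other 6 thus entered the test through groups in which they were high, so the count of 7 is a description and no support for a common fall. The values for GAME18 and GAME17 rest on 10 and 8 counts in the later WT group. Left out 1 at a time, WT replicate 3 of the later stage moved GAME1 to −5.90 and GAME18 to −6.07, and WT replicate 2 moved GAME11 to −6.20 and GAME18 to −4.83.

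In slnor 6 of the 7 members fell over the same interval, where 26.2% of all genes tested rose, 26% fell and 8.68% fell at least 2-fold. Only 3 members lay above the low-count limit in all later slnor libraries, so GAME4, GAME6, GAME17 and GAME18 entered through groups in which they were high, and this count too is a description and no support for a common fall. GAME18 fell 13.3-fold (log2 −3.73, SE 0.436, adjusted p = 1.66e-06) and GAME11 8.12-fold (−3.02, SE 0.192, adjusted p = 8.6e-10). GAME1 fell 3.63-fold (−1.86, SE 0.372, adjusted p = 4.71e-04) and GAME6 3.33-fold (−1.73, SE 0.50, adjusted p = 0.0079; −2.60 without slnor replicate 3 of the later stage). GAME12 fell least among those that passed, 1.94-fold (−0.96, SE 0.157, adjusted p = 6.83e-05). GAME4 passed too (adjusted p = 6.40e-04), from 115 counts over 3 libraries to 4. GAME17 did not pass (−0.83, adjusted p = 0.378).

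Members thus differed in how much of their breaker level remained in slnor fruit. The later mean was 51.6% of the breaker mean for GAME12, 27.5% for GAME1, 12.3% for GAME11 and 7.49% for GAME18, against 6.83%, 3.85%, 2.40% and 2.26% in WT. The slnor intervals for GAME12 (log2 −1.29 to −0.62) and GAME11 (−3.43 to −2.62) did not overlap; the difference between genes was not tested. In both genotypes GAME18 and GAME11 kept the smallest shares of these 4 genes. Those 4 were the members called between genotypes after 7 days, and the later WT mean of GAME18 rests on 10 counts. The other members tested had few later counts. In slnor GAME17 kept 56.4%, GAME6 30.1% and GAME4 3.34%, against 8.32%, 9.44% and 0% in WT.

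**Figure D3:**
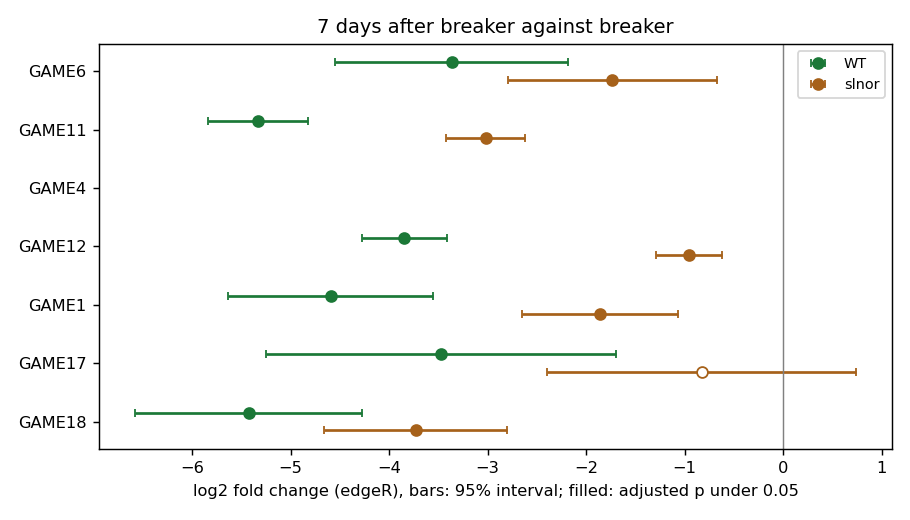
Log2 fold change from breaker to 7 days later (edgeR) in WT and in slnor for the members tested, with 95% intervals; filled points passed. Every WT point lies further below 0 than the slnor point of its gene, for example −3.85 against −0.96 for GAME12; GAME4 is not drawn because its later groups were under the floor.

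The interaction tested whether the stage change differed between genotypes. It passed for 3 of 7 members, all in the direction of a smaller fall in slnor, where 21.8% of all genes tested passed in that direction and 20.4% in the other. GAME12 differed by 2.89 on the log2 scale (SE 0.258, adjusted p = 1.12e-07), GAME1 by 2.74 (SE 0.632, adjusted p = 0.0021) and GAME11 by 2.31 (SE 0.325, adjusted p = 2.12e-05). The other 4 had positive estimates that did not pass, at 1.63 for GAME6 (adjusted p = 0.0914), 2.65 for GAME17 (adjusted p = 0.0678) and 1.69 for GAME18 (adjusted p = 0.0882), with GAME4 at an adjusted p of 0.194 on 4 later counts. DESeq2 called 5 members, GAME17 (adjusted p = 0.0341) and GAME18 (adjusted p = 0.0453) being the additional ones. Without WT replicate 3 of the later stage GAME1 differed by 4.04, and without WT replicate 2 GAME11 differed by 3.17.

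Further GAME genes differed among themselves. GAME15 (Solyc07g043390.4), a cellulose synthase-like gene needed for the early glycosylated intermediates, stood at 2.69 ± 0.270 CPM in WT and 2.20 ± 0.0959 in slnor at breaker (SD, n = 3). After 7 days it had 0, 0 and 17 counts in WT and 135, 94 and 144 counts in slnor, a log2 difference of 4.37 (SE 0.570, adjusted p = 5.04e-06). Without WT replicate 3 the WT group has no count, and without WT replicate 2 the difference was 3.78. In slnor GAME15 did not pass between stages (−0.14, adjusted p = 0.798). GAME7 (Solyc07g062520.3), an early cytochrome P450, was 1.45-fold higher in slnor after 7 days (adjusted p = 1.14e-05).

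Of the genes of late, ripening-associated steps, GAME5 and GAME36 were lower in slnor and GAME31 did not pass. GAME5 (Solyc10g085240.1), the glycosyltransferase that completes esculeoside A, stood at 9.22 ± 0.187 CPM in WT and 2.46 ± 0.332 in slnor at breaker, and at 30.4 ± 2.07 against 4.65 ± 1.03 CPM after 7 days. It was 3.77-fold and 6.55-fold lower in slnor (log2 −1.91, SE 0.135 and −2.71, SE 0.124, adjusted p = 9.53e-12). GAME36 (Solyc08g075210.2), the acetyltransferase, was 1.45-fold lower in slnor at breaker and 2.14-fold lower after 7 days (−1.10, SE 0.036, adjusted p = 1.68e-13). GAME31 (Solyc02g062460.4), the dioxygenase that hydroxylates α-tomatine, was the most abundant of these genes at 647 to 880 CPM in the 4 group means. It rose with stage in both genotypes (log2 0.40 and 0.41) and did not pass between genotypes with TMM at either stage. GAME2, a xylosyltransferase of the chromosome 7 cluster (Solyc07g043410.1), had no count in any library. Among 5 further GAME genes tested, slnor had 1 higher and 2 lower at breaker, where 25.6% of all genes tested were higher and 23.7% lower. After 7 days 2 were higher and 2 lower, beside 28.5% and 27.4% of all genes. With so few genes these counts do not set the list apart. GAME7 and GAME31 lie outside the rule for naming genes; their values had been seen when they were chosen.

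Most upstream sterol genes were higher in slnor than in WT at the later stage. Of 16 sterol genes tested, 14 were higher in slnor 7 days after breaker and none was lower, 5 of them at least 2-fold, where 28.5% of all genes tested were higher, 9.99% at least 2-fold, and 27.4% were lower. Their median log2 fold change was 0.69. CAS1 (Solyc04g070980.4), the cycloartenol synthase at the entry to plant sterols, stood at 5.06 ± 0.262 CPM in WT and 21.7 ± 0.505 in slnor (log2 2.10, SE 0.079, adjusted p = 8.52e-13). SQE (Solyc04g077440.4), squalene epoxidase, stood at 19.5 ± 1.59 against 69.2 ± 3.64 CPM (1.82, SE 0.063). HMGR1 (Solyc02g082260.3), of the mevalonate pathway, stood at 25.2 ± 1.75 against 73.0 ± 2.15 CPM (1.53, SE 0.078). SMT1 (Solyc01g111830.3), a sterol methyltransferase of the branch away from cholesterol, stood at 18.4 ± 1.05 against 56.5 ± 2.94 CPM (1.62, SE 0.060). Genes of the trunk and of the phytosterol branch were thus among those that were higher.

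SSR2 (Solyc02g069490.4), the sterol side chain reductase that directs sterols to cholesterol, stood at 9.27 ± 0.686 CPM in WT and 6.51 ± 0.142 in slnor at breaker. After 7 days it stood at 1.38 ± 0.447 against 4.41 ± 0.638 CPM (log2 1.69, SE 0.181, adjusted p = 4.86e-07). The RefSeq table places a gene with this symbol on chromosome 3 and not 2, so the pairing of name and identifier is uncertain. SMO4 (Solyc06g005750.3), a sterol methyl oxidase, had a different pattern, at 12.6 ± 1.38 CPM in WT at breaker against 0.756 ± 0.135 in slnor (−4.05, SE 0.161, adjusted p = 1.67e-12). After 7 days it stood at 0.791 ± 0.0596 in WT and 1.28 ± 0.106 CPM in slnor. At breaker 9 of the 16 sterol genes were higher and 3 lower in slnor, beside 25.6% and 23.7% of all genes tested. Scaled by library totals only, 11 were higher and 1 lower, where 8447 of the 20070 genes tested were higher and 2836 lower. Over 7 days in WT 12 of the 16 fell and 3 rose, beside 32.1% and 33.2% of all genes. In slnor 4 fell and 8 rose, beside 26% and 26.2%. The interaction passed for 12, all in the positive direction, in which 21.8% of all genes passed.

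The jasmonate pathway feeds into GAME9 through the transcription factor MYC2. MYC2 (Solyc08g076930.1) stood at 134 ± 2.82 CPM in WT and 152 ± 3.44 in slnor at breaker, and at 186 ± 2.24 against 145 ± 4.13 CPM after 7 days. It was higher in slnor at breaker (log2 0.19, SE 0.034, edgeR adjusted p = 1.72e-04) and lower later (−0.36, SE 0.034, adjusted p = 9.61e-08). A link between MYC2 and the GAME transcripts was not tested. Among 4 regulator genes tested, slnor had 2 higher and 1 lower at breaker, beside 25.6% and 23.7% of all genes. After 7 days 1 was higher and 1 lower, near the 28.5% and 27.4% of all genes.

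**Figure D4:**
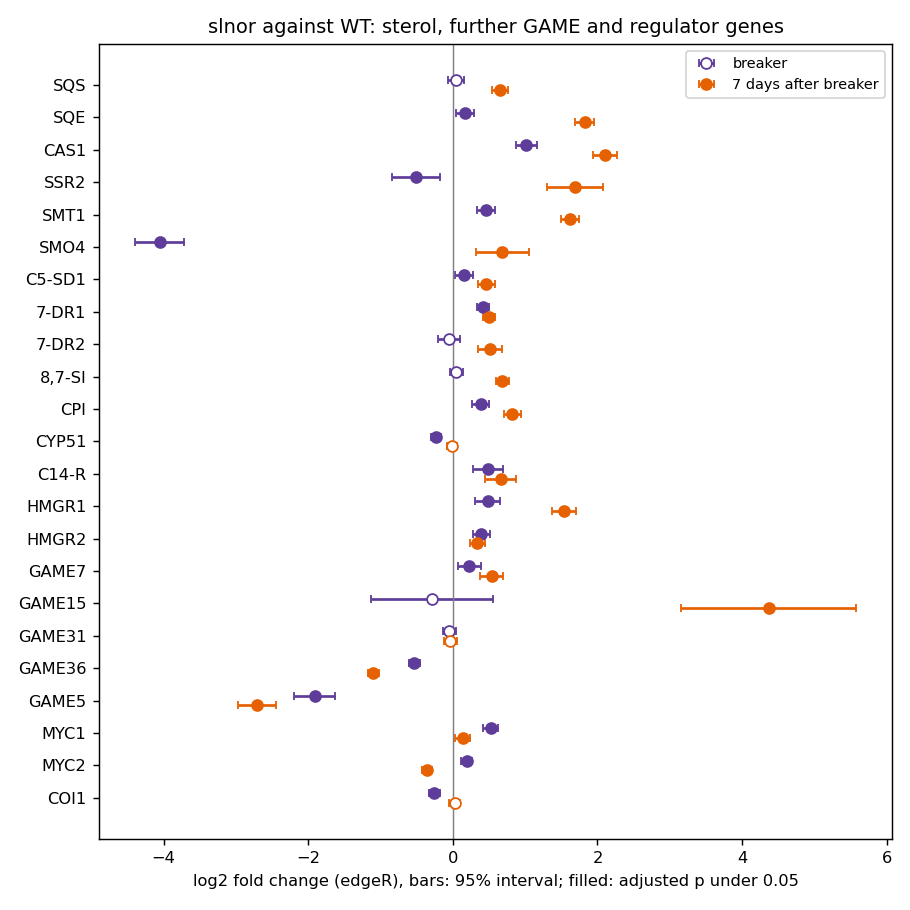
Log2 fold change of slnor against WT (edgeR) for sterol genes, further GAME genes and regulators at both stages, with 95% intervals; filled points passed. Sterol genes lie mostly right of 0 after 7 days, GAME15 lies at 4.37, and GAME5 and GAME36 lie left of 0 at both stages; C5-SD2 and JRE2, which had few counts, are not drawn.

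The chromosome 7 cluster held silent and active neighbours side by side, whereas every identifier examined on chromosome 12 had counts. Among 13 identifiers from GAME15 to the first beyond GAME18 on chromosome 7, 6 had no count in any library, GAME2 among them, and 7 were tested. Those 7 were GAME15, the 5 GAME members and 1 unnamed identifier beyond GAME18. The unnamed gene stood at 50.5 CPM in WT and 51.7 in slnor after 7 days and did not pass between genotypes there (adjusted p = 0.681), while at breaker it passed as lower in slnor (log2 −0.29, adjusted p = 0.0012). On chromosome 12, 4 unnamed identifiers flanked GAME4 and GAME12, and all 4 were tested. Next to GAME4, Solyc12g006450.2 fell from 185 to 38.8 CPM in WT and from 153 to 51.5 CPM in slnor, and after 7 days it was higher in slnor by 0.41 (log2, adjusted p = 3.92e-05). Next to GAME12, Solyc12g006480.2 stood at 114 and 113 CPM after 7 days and did not pass (edgeR adjusted p = 0.897). At breaker it was higher in slnor (log2 0.39, adjusted p = 7.52e-07), while Solyc12g006450.2 was lower (−0.28, adjusted p = 0.0010). Further out, Solyc12g006440.2, which had few counts, fell with stage in WT (−3.80) and slnor (−2.96) and passed between genotypes at neither stage. Solyc12g006490.2 was lower in slnor at breaker (−0.54, adjusted p = 2.72e-06) and did not pass later. The values of these neighbours were known when they were described.

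**Figure D5:**
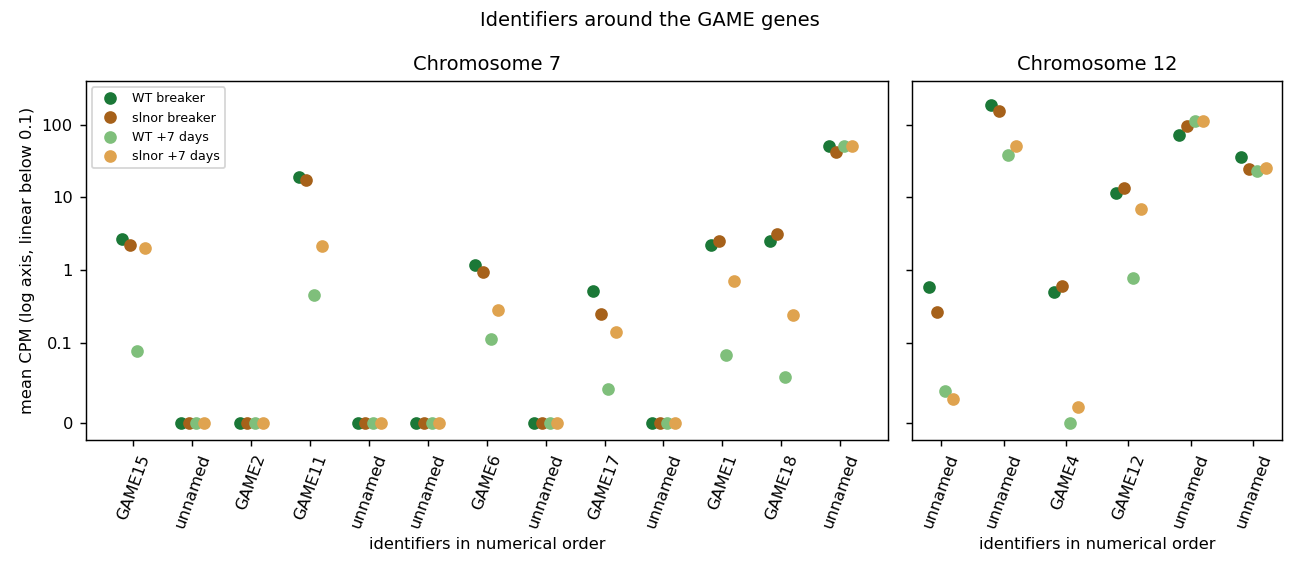
Mean CPM of 3 libraries in each of the 4 groups for the identifiers around the GAME genes of chromosomes 7 and 12, in numerical order (log axis, linear below 0.1). On chromosome 7 the points at 0 alternate with GAME genes that are lowest in WT after 7 days, and the unnamed gene beyond GAME18 stays between 41.8 and 51.7 CPM.

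Among themselves, members were compared by the largest difference between their centred log2 group means over the 4 groups, with 0.05 CPM added before taking logs. GAME11 and GAME18 were most alike (0.387), followed by GAME1 and GAME12 (0.566), and GAME17 and GAME18 least (1.83). In later WT GAME18 stood at 0.057, GAME1 at 0.085 and GAME17 at 0.043 CPM, so these distances depend on the added 0.05 CPM. Among 3454 other genes whose group means spanned at least 2 log2 units, Solyc09g005470.3 (0.0684) and Solyc09g097780.2 (0.149) were most like GAME12. The former stood at 0.699 and 0.813 CPM at breaker in WT and slnor and at 0 and 0.36 CPM after 7 days, so its likeness depends on the added 0.05 CPM. The latter stood at 10.5 and 11 CPM at breaker in WT and slnor and at 0.785 and 6.45 CPM after 7 days. For GAME4 the nearest were Solyc04g080520.1 and Solyc04g080420.4 (0.149 each), both under 1 CPM in every group. GAME4 itself had no count in later WT, so this ranking too depends on the added value. The tables used here name none of these identifiers, and the likeness rests on 4 group means.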

How the data were processed

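RNA of tomato fruit was sequenced in 12 libraries. The authors deposited raw counts per gene in 1 table, and 1 table per library in a unit taken here as FPKM: for 7290 abundant genes, count, value and library total gave 1 gene length within 0.275%. The submitters' processing notes list the tools HISAT, StringTie, UMI-tools and edgeR, without versions. Genome build, annotation, kit and strand setting: not given in the sources used here. Hence no coordinates or sequences are printed. Names were paired with identifiers from published nomenclature. RefSeq's gene table (assembly SLM_r2.1) lists 7 of the 8 members on the chromosome of the identifier, and the 5 of chromosome 7 in the same order. There GAME11 and GAME12 are synonyms only, under the symbols gad2 and GABA-TP2. Of all 51 names, 34 were found on the identifier's chromosome and 2, SSR2 and E8, on another. GAME25, listed too, was not analysed here.

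Counts as deposited were tested in R 4.3.3 with edgeR 4.0.16 (glmQLFit, glmQLFTest, TMM, filterByExpr) in 1 fit of 12 libraries. The filter kept 20070 genes with 99.988% of counts. Benjamini-Hochberg adjustment covered all of them, and 0.05 was the threshold. Standard errors (SE) are absolute log2 fold changes over the square root of F, and 95% intervals use the t quantile. FPKM served to rank members and to sum them per library, and no test used it. Alternatives were library totals or DESeq2 size factors for scaling, other low-count filters, a replicate block, a fit of only the groups compared, counts divided by 4, each library left out, and DESeq2 1.42.0. The code was tested on simulated data. For replicate pairs, chi-square over its degrees of freedom ran from 4.69 to 14.7, with each count taken as an independent event. A count does not stand for 1 read, so these values do not show how far the spread exceeded counting error. Same-numbered libraries did not deviate together (correlations −0.0715 to 0.0702 in 18 pairs).

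Members, lists, tests and the naming rule were chosen with earlier results of these data known. All members are named. In each list up to 6 genes are named that changed at least 2-fold between genotypes at an adjusted p under 0.05, or the most abundant one.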

Additional observations from a re-analysis of the deposited data

Results flagged for a closer look

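By the interaction term of the edgeR fit, the genotype effect differed between the 2 stages for 3 of the 7 GAME members tested. It also differed for 10 other named genes. Of all genes tested, 21.8% passed as higher and 20.4% as lower. Most of the other named genes were picked for a genotype change of at least 2-fold in these data, so their count is only a description. The values are the log2 fold change of slnor against WT after 7 days minus that at breaker. Among the members they were 2.89 for GAME12, 2.74 for GAME1 and 2.31 for GAME11. Among further GAME genes they were 4.66 for GAME15 (adjusted p = 4.79e-05), −0.80 for GAME5 (adjusted p = 0.0020) and −0.57 for GAME36 (adjusted p = 1.17e-07). Without WT replicate 3 of the later stage the value for GAME15 rests on a WT group without counts. Among sterol genes they were 4.74 for SMO4, 2.20 for SSR2, 1.66 for SQE, 1.16 for SMT1, 1.08 for CAS1 and 1.05 for HMGR1, with adjusted p of at most 1.17e-06. For MYC2 the value was −0.55 (adjusted p = 8.19e-08), its genotype effect changing sign between the stages.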

How the results depend on the processing

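Single-gene results were recomputed under 20 other settings, 12 of which left out 1 library each. Over 110 such results, 2103 of the values kept direction and side of the threshold, 22 lost and 9 gained the call, and 14 changed sign. With library totals alone, members higher at breaker numbered 1 in place of 0, further GAME genes higher at breaker 2 in place of 1 and for the interaction 1 in place of 2, sterol genes lower at breaker 1 in place of 3, and regulators lower at breaker 0 in place of 1, higher after 7 days 2 in place of 1, and lower with stage in slnor 3 in place of 1. Regulators lower with stage numbered 1 in WT and 0 in slnor with at least 1 CPM in 3 libraries, and 1 in WT with only the groups compared, in place of 2 and 1. DESeq2 gave 5 members higher for the interaction in place of 3. With 1 library left out, further GAME genes higher numbered 0 to 1 at breaker and 1 to 2 for the interaction, those lower with stage in slnor 1 to 2, and regulators higher after 7 days 0 to 1; members higher after 7 days numbered 3 to 5. GAME6 was higher after 7 days, and passed for the interaction (2.0), only without slnor replicate 1.

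Signs turned with library totals for GAME11 at breaker (0.0574) and for GAME31 at breaker (0.126), after 7 days (0.0664) and for the interaction (−0.0599). They turned with the replicate block for JRE2 after 7 days (−0.0602, with no count in either group). With 1 library left out, GAME31 ranged from −0.0151 to 0.0648 for the interaction and from −0.0595 to 0.0133 after 7 days, HMGR1 from −0.103 to 0.0447 for the WT stage change, HMGR2 from −0.0971 to 0.0293 for the interaction, and GAME4 from 0 to 4 after 7 days and from −0.261 to 3.74 for the interaction, its 4 later counts being in the library left out. None of these passed except GAME31 at breaker. The causes were not tested. The libraries share only a replicate number. With the replicate block, the members called numbered 4 higher after 7 days, 7 lower in WT and 6 lower in slnor. Of the 20070 genes tested, 5625 were then higher after 7 days, 6358 lower in WT and 5069 lower in slnor. Given the low-count filter, the counts of members that fell remain a description. Of 12 libraries, 6 correlated best with their own number. Depth limits GAME9, GAME4 and GAME17, which were at or under the floor in all later libraries. Counts divided by 4, a setting chosen after seeing the data, took the call from GAME18 after 7 days. GAME4 and GAME17 were then not tested. The 5 members tested were all lower with stage in each genotype. Of all genes, 6171 fell and 6356 rose in WT, and 5290 fell and 5344 rose in slnor. Members low at the later stage entered through groups in which they were high, so this count too is a description and no support for a common fall.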

Other observations

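Of the other AP2/ERF genes of the GAME9 cluster on chromosome 1, JRE1, JRE3 and JRE5 were nearly silent and JRE2 had counts at breaker. JRE2 (Solyc01g090310.3) had 19, 0 and 8 counts in WT and 37, 42 and 72 counts in slnor at breaker, and no count in any library 7 days later. It did not pass between genotypes at breaker (log2 2.10, edgeR adjusted p = 0.0820), but did so with only those groups fitted (adjusted p = 0.0314), with counts divided by 4 (adjusted p = 0.0074) and without WT replicate 1 (3.33, adjusted p = 0.0376). JRE1 and JRE3 had at most 4 counts in any library and JRE5 had none. HMGR2 (Solyc02g038740.4), a second gene of the mevalonate pathway, rose with stage from 38.1 to 545 CPM in WT and from 50.1 to 690.5 CPM in slnor (log2 3.84 and 3.78), while HMGR1 rose in slnor (1.02) and did not pass in WT (−0.04). JRE2 and HMGR2 were chosen after their values were seen.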
